A study of Mus musculus with 24 samples.

Results

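The genes described here are 40 genes of the NRF2 response, glutathione metabolism and the pentose phosphate pathway, given as a list of names. A gene was represented by its brightest probe set, the probe set with the highest mean over the 24 arrays among those annotated with 1 gene symbol. By that rule 37 of the 40 genes were measured, out of 19938 genes in all. Prdx5, Prdx6 and G6pdx had no such probe set under their names and were not analysed here.

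The arrays hold RNA from 4T1, a line of mouse mammary carcinoma cells, and every group was grown in RPMI-1640 medium with 3 mM glucose, a low supply. The control group had no lactic acid added, and the other 7 groups had 20 mM lactic acid for 1, 3, 4, 5, 7, 9 or 11 days. Each of the 8 groups has 3 arrays, numbered as biological replicates, and that number limits the precision. The study looked for genes that follow a time course as lactic acid extends the life of cells short of glucose. No label gives the culture time of the control, so lactic acid and time in culture cannot be told apart in any comparison with control. All 7 comparisons with control share the same 3 control arrays. Nothing says that replicates are separate cultures, so p-values measure only the spread between these arrays, which may be technical. Cells were 1 line, and no group with a higher glucose supply was used here.

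NRF2, encoded by Nfe2l2, is a transcription factor that KEAP1 holds at a low level by sending it for degradation. Oxidants and electrophiles that modify KEAP1 let it build up. With a small MAF partner it then binds antioxidant response elements and drives genes for glutathione synthesis, the thioredoxin system, conjugating enzymes and the oxidative arm of the pentose phosphate pathway, which supplies the NADPH that both thiol systems run on. Much of NRF2's control is over its protein, so its mRNA is a poor guide to its activity.

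The antioxidant response element has the core TGACNNNGC, where N is any base. RefSeq promoter windows of the GRCm38.p6 build were found for 35 of the 40 genes, 33 of them measured, and both strands of the 250 bases before each start were searched. The core was found in 7 of the 33 genes (21.2%), beside 11.5% of all 27025 genes with a window (10.2% of 32851 windows of that length). The stretches around these matches are shown because the core is the letters that NRF2 is known to read. Each is written 5′ to 3′ on the strand named, with the core in capitals.
Nfe2l2, 240 to 232 bases before the start, chr2:75704885-75704913, minus strand: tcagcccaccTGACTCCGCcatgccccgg
Gstm5, 42 to 34 bases before the start, chr3:107895802-107895830, plus strand: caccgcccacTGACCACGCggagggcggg
Gclm, 134 to 126 bases before the start, chr3:122245413-122245441, minus strand: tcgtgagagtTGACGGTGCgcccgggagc
Prdx1, 133 to 125 bases before the start, chr4:116685456-116685484, minus strand: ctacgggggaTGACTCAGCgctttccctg
Mgst1, 56 to 48 bases before the start, chr6:138140461-138140489, minus strand: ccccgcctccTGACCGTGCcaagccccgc
Txnrd1, 92 to 84 bases before the start, chr10:82859104-82859132, minus strand: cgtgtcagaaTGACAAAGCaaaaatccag
Sod1, 56 to 48 bases before the start, chr16:90220696-90220724, minus strand: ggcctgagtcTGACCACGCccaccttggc
These 7 genes are Mgst1, Gstm5 and Sod1, which rose on some days, Gclm, Prdx1 and Txnrd1, which fell on some days, and Nfe2l2, which was not called. A match is a description and not a bound site. No match says only that these letters are not in this window. No window was found for Hmox1, Gclc, Gsr or Gsta4.

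A related sequence, TGACTCA, the core read by AP-1 factors, overlaps the antioxidant element where GC follows it, as in Prdx1. This sequence was chosen after the windows had been looked at. It was found in 5 of the 33 genes (15.2%), with 7 matches, beside 5.16% of all genes with a window (4.46% of windows). Of 71 other genes of the same pathway with a window, 2 (2.82%) held it. The matches are shown because they include the gene with the largest rise, Mgst2, and Srxn1, a textbook NRF2 target that holds no match to the longer core in its window.
Srxn1, 102 to 96 bases before the start, chr2:152105412-152105438, minus strand: cacagcgtggTGACTCAggccctccga
Srxn1, 45 to 39 bases before the start, chr2:152105469-152105495, minus strand: gcccggccgcTGACTCAgggtgaattt
Mgst2, 52 to 46 bases before the start, chr3:51661117-51661143, plus strand: ccaatcctgtTGACTCAactctgttgc
Gstm5, 176 to 170 bases before the start, chr3:107895668-107895694, plus strand: ctgtgcaacaTGACTCAcgcttcccgg
Prdx1, 237 to 231 bases before the start, chr4:116685352-116685378, plus strand: aacgaggaaaTGACTCAaagggcagtg
Prdx1, 131 to 125 bases before the start, chr4:116685458-116685484, minus strand: ctacgggggaTGACTCAgcgctttccc
Gstp1, 74 to 68 bases before the start, chr19:4037970-4037996, plus strand: ccccggatgcTGACTCAacacgttgga
The 7 letters are in capitals. Of these 5 genes, Mgst2, Gstm5, Srxn1 and Gstp1 rose on some days, and Prdx1 only fell, on days 5 and 7. The rises of Srxn1 and Gstp1 were lost without single arrays. Here too a match is not a bound site.

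Whole windows are shown for 2 microsomal transferase genes that rose on all days from day 3 and for 2 mu class genes that lie near each other on chromosome 3, Gstm1, which rose likewise, and Gstm2, which was not called on any day. Each gives the 250 bases before the start on the gene's own strand, with a match to either sequence in capitals. The match in Mgst1 lies on the opposite strand, so it reads in reverse complement.
Mgst1, chr6:138140277-138140526, plus strand: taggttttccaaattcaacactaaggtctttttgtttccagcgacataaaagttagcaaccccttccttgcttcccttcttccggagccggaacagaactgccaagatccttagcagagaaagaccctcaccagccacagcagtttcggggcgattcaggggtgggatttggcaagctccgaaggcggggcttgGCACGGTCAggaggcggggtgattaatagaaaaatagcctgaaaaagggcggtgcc
Mgst2, chr3:51660929-51661178, plus strand: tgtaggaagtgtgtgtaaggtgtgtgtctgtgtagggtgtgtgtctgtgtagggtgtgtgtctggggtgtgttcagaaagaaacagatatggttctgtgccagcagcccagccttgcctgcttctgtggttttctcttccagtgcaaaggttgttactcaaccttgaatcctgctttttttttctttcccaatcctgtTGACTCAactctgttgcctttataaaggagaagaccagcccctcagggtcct
Gstm1, chr3:108017974-108018223, minus strand: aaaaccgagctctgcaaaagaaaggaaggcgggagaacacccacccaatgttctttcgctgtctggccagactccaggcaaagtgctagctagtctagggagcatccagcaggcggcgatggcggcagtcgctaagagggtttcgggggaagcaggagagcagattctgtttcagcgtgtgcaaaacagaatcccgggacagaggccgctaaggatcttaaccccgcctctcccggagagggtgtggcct
Gstm2, chr3:107986421-107986670, minus strand: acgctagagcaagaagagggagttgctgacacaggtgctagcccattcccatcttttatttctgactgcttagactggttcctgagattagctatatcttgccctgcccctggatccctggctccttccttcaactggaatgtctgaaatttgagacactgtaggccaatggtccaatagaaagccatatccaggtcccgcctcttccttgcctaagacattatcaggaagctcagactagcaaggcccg
The windows of Gstm1 and Gstm2 hold neither sequence.

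Facts of the whole set of arrays that bear on these genes are few. Values are log2 signals, and over all probe sets the array medians lay between 4.40 and 4.75. Day 1 replicate 1 stood apart, with an SD over genes of 1.94 against 2.16 or more on every other array. Day 9 replicates 2 and 3 had the next highest medians, 4.70 and 4.64, closely followed by day 3 replicate 2 at 4.62. Over genes their medians, 5.07 and 5.04, lay among those of the other arrays. Within day 9, replicate 1 was the least like its group, with a median correlation of 0.9885 against 0.9915 and 0.9923. The epithelial keratins Krt8 and Krt18 had control means of 11.12 and 11.05, above 99.2% and 99.5% of genes by their mean over all arrays, while Epcam, also an epithelial marker, had a control mean of 4.12. The whole list of 13 epithelial markers averaged 5.92 to 5.97 on control arrays. Apart from Krt8 and Krt18, control means of this list ran from 3.48 (Grhl2) to 7.76 (Cldn3), with Krt5 at 3.96 and Cdh1 at 5.20. Marker lists of leukocytes (12 genes), endothelium (7 genes), adipocytes (6 genes) and erythroid cells (4 genes) averaged between 3.27 and 4.64 on every array but day 1 replicate 1, where they averaged 3.91, 4.17, 4.08 and 4.97. Among 7 fibroblast markers, Pdgfra ranged from 7.18 to 10.23, and the list averaged 4.57 to 4.66 on control arrays and 5.01 to 5.26 on day 3. The part of these markers in the results was not tested.

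The 37 genes split rather than moved as a block. A gene was called when its adjusted p in limma was below 0.05, with Benjamini-Hochberg adjustment over all 19938 genes, and "rose" and "fell" are used only for called genes. On day 1, 5 of the 37 genes were called, 1 higher and 4 lower, where 4.81% of all genes were called, 2.30% higher and 2.52% lower. On day 3, 20 of 37 were called, 10 higher and 10 lower, beside 26.3% of all genes (12.4% higher, 13.9% lower). Day 4 had 19 calls, 8 higher and 11 lower, beside 26.9% of all genes (14.0% higher, 12.9% lower). Day 5 had 21, with 9 higher and 12 lower, beside 27.5% (17.2% higher, 10.3% lower). Day 7 had 14, with 6 higher and 8 lower, beside 25.4% (16.0% higher, 9.44% lower). Day 9 had 20, with 11 higher and 9 lower, beside 27.2% (13.1% higher, 14.0% lower). Day 11 had 14, with 7 higher and 7 lower, beside 25.8% (14.0% higher, 11.8% lower). From day 3 on, rises and falls were similar in number. The median change of the 37 genes was -0.20 beside 0.07 for all genes on day 3, the widest gap of the 7 days, and -0.04 beside -0.03 on day 11. The day 1 count was 2 without control replicate 3, 3 without control replicate 2 and 13 without day 1 replicate 2. Of all 19938 genes, 519, 411 and 3026 were called in those fits. Omitting day 1 replicate 1 gave 21 calls on day 7 and 21 on day 11, beside 6565 and 6369 of all genes. The shares of all genes include dim genes. With the 40% dimmest genes left out, calls on the 7 days were 6, 22, 20, 23, 16, 20 and 17 of 36 listed genes. Beside them, 1410, 5411, 5626, 5560, 5444, 5538 and 5450 of the 11963 genes kept were called.

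**Figure D1:**
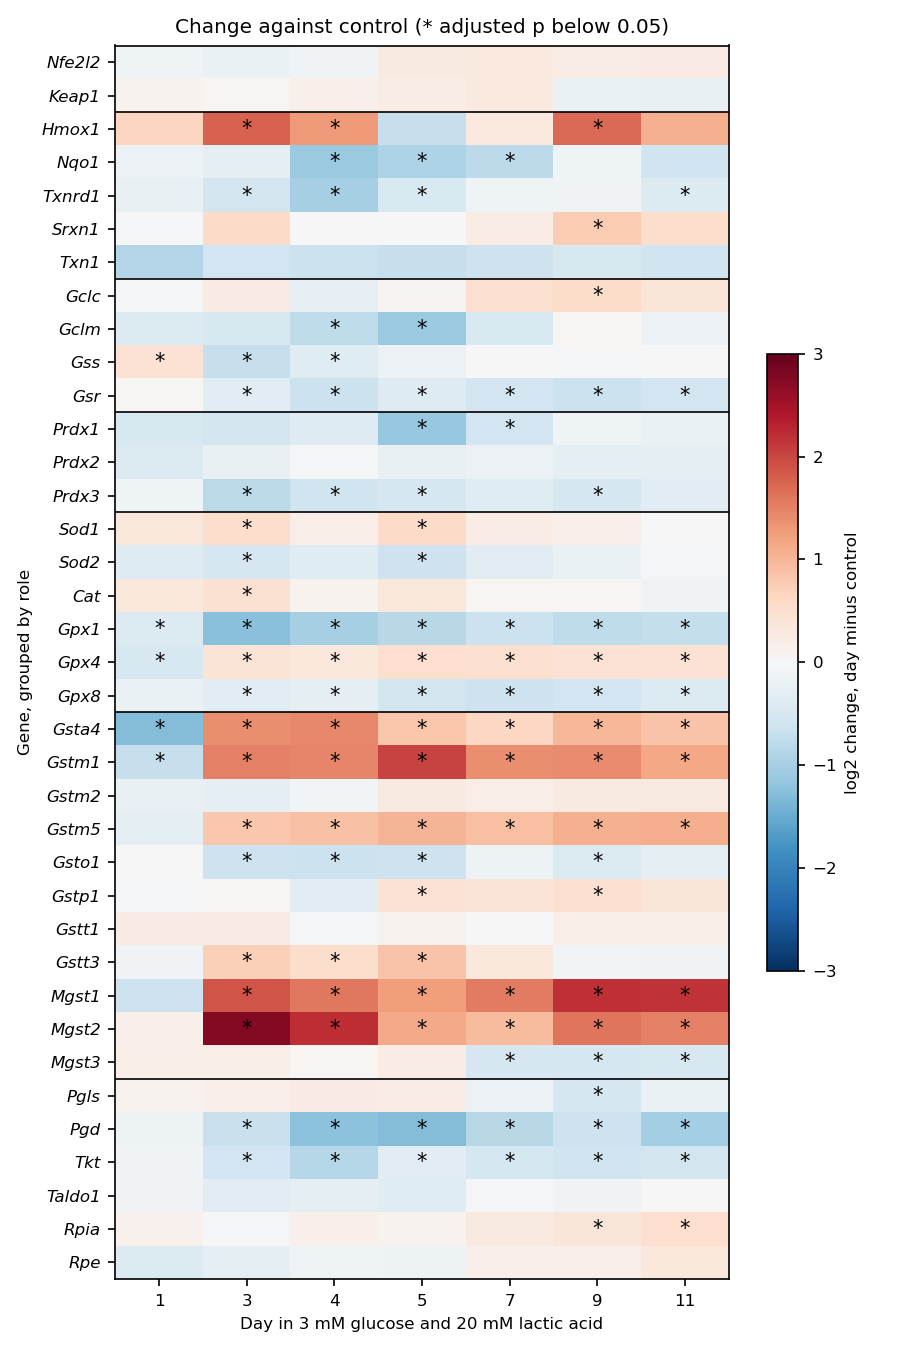
Log2 change of each of the 37 genes (down the side, grouped by role, with lines between roles) on each of the 7 days (along the bottom) against control, each the difference of 2 means of 3 arrays; red is higher, blue is lower, and an asterisk marks an adjusted p below 0.05. The reddest cells are Mgst2 on days 3 and 4 (2.76 and 2.22) and Mgst1 on days 9 and 11 (2.19 and 2.16), and unbroken rows of asterisks from day 3 on mark 6 genes that were higher and 5 that were lower on all 6 of those days.

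Day by day, 29 of the 37 genes were called on at least 1 day, 11 of them only higher, 14 only lower and 4 both ways. Of all 19938 genes, 47.9% were called on at least 1 day, 25.0% only higher, 20.6% only lower and 2.27% both ways. From day 3 on, 6 of the 37 were higher on all 6 days, as were 6.69% of all genes, and 5 were lower on all 6, as were 5.41%. Those higher on all 6 days from day 3 were Gpx4, Gsta4, Gstm1, Gstm5, Mgst1 and Mgst2, of which 5 are glutathione transferase genes. Those lower on all 6 days were Gsr, Gpx1, Gpx8, Pgd and Tkt. The 8 never called were Nfe2l2, Keap1, Txn1, Prdx2, Gstm2, Gstt1, Taldo1 and Rpe. An F test among the 7 treated days called 32 of the 37, beside 44.8% of all genes. With the 40% dimmest genes left out it called 33 of 36, beside 8715 of the 11963 genes kept.

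**Figure D2:**
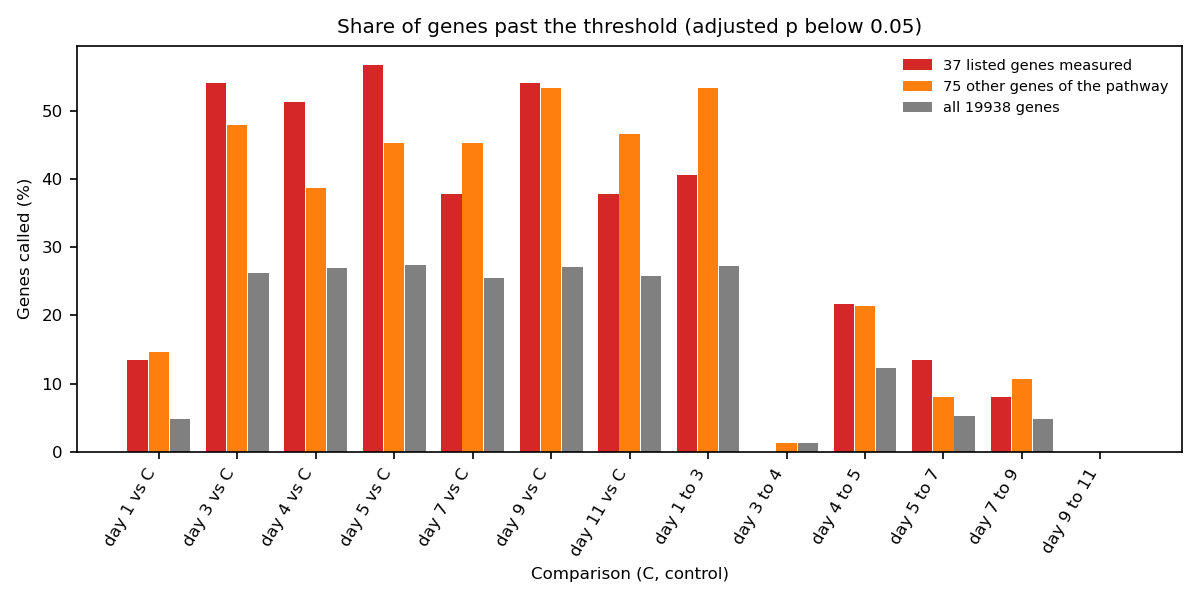
Percent of genes called (adjusted p below 0.05, upright axis) in each of the 7 comparisons with control and the 6 steps between sampled days (along the bottom), for the 37 measured genes, 75 other genes of the pathway and all 19938 genes. On day 3, 54.1% of the 37 genes were called beside 26.3% of all genes, and no gene of the 37 was called from day 3 to day 4 or from day 9 to day 11. The share of all genes includes the 40% dimmest genes.

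Neither the factor nor its inhibitor was called on any day. Nfe2l2 read 8.80, 9.03 and 8.88 for control, 8.33, 9.10 and 8.88 for day 1, 8.83, 8.63 and 8.65 for day 3, and 8.96, 8.70 and 8.75 for day 4. Day 5 gave 9.20, 9.18 and 9.16, day 7 gave 9.27, 9.22 and 9.09, day 9 gave 9.23, 9.06 and 9.11, and day 11 gave 9.17, 9.16 and 9.15. Its arrays overlapped those of control on days 1, 3 and 4, and from day 5 they lay just above them. The largest change of Nfe2l2 was 0.29 (SE 0.14, adjusted p = 0.150), on day 7. Keap1, the adaptor that marks NRF2 for degradation, read 7.60, 7.41 and 7.69 for control, 7.97, 7.47 and 7.61 for day 1, 7.66, 7.70 and 7.52 for day 3, 7.52, 7.77 and 7.85 for day 4, and 7.92, 7.79 and 7.70 for day 5. Day 7 had 7.90, 7.80 and 7.85, day 9 had 7.63, 7.19 and 7.30, and day 11 had 7.37, 7.19 and 7.50. Keap1 arrays lay among or just above the control arrays up to day 7, and those of days 9 and 11 among or below them. From day 7 to day 9 Keap1 fell by 0.48 (SE 0.14, adjusted p = 0.0489), a step called for 4.76% of all genes (3.74% lower). That call was lost without any 1 of day 7 replicates 1 to 3 or day 9 replicates 2 and 3 (log2 change -0.50 to -0.39, adjusted p 0.00422 to 1.00 over all alternatives).

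Genes that are textbook NRF2 targets did not share a direction. Hmox1, Srxn1 and Gclc had their rises on days 3, 4 or 9, while Nqo1, Txnrd1 and Gclm fell around days 4 and 5.

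Hmox1, heme oxygenase, which breaks heme down to biliverdin, iron and carbon monoxide, was high, low and high again in turn. It read 7.36, 7.62 and 7.60 for control, 8.54, 7.91 and 8.04 for day 1, 9.45, 9.04 and 9.40 for day 3, and 8.61, 8.42 and 9.41 for day 4. Day 5 showed 7.08, 6.80 and 6.66, day 7 showed 7.69, 7.08 and 8.69, day 9 showed 7.96, 9.75 and 10.01, and day 11 showed 9.03, 7.96 and 8.76. All arrays of days 1, 3, 4, 9 and 11 were above all control arrays, those of day 5 were all below, and on day 7 they straddled control. Hmox1 rose by 1.77 (SE 0.41, adjusted p = 0.00186) on day 3, 3.40-fold, by 1.28 (SE 0.41, adjusted p = 0.0203) on day 4 and by 1.71 (SE 0.41, adjusted p = 0.00232) on day 9. On day 5 the change was -0.68 (SE 0.41, adjusted p = 0.249). From day 4 to day 5 it fell by 1.97 (SE 0.41, adjusted p = 0.00285), 3.91-fold, a step in which 12.3% of all genes were called (9.06% higher, 3.29% lower). The day 4 call was lost without control replicate 1 or day 4 replicate 3 (log2 change 0.99 to 1.20, adjusted p 0.000751 to 0.125 over all alternatives). On day 9 the rise rested on replicates 2 and 3, at 9.75 and 10.01 against 7.96 for replicate 1: with those arrays and day 1 replicate 1 left out, so that 1 day 9 array was assumed to vary like the other groups, it was 0.43 with an adjusted p of 0.569 (2.7e-05 to 0.569 over all alternatives).

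Nqo1, a quinone reductase that uses NADH or NADPH, went the other way. It read 7.97, 7.70 and 7.75 for control, 7.56, 7.66 and 7.70 for day 1, 7.63, 7.49 and 7.42 for day 3, 6.74, 6.57 and 6.75 for day 4, and 7.26, 6.46 and 6.88 for day 5. Day 7 gave 6.95, 6.43 and 7.66, day 9 gave 7.04, 7.76 and 8.20, and day 11 gave 7.32, 6.99 and 7.31. On every treated day but day 9 all its arrays were below all control arrays, and day 9 ran from below control to above it. Nqo1 fell by 1.12 (SE 0.25, adjusted p = 0.00130) on day 4, 2.17-fold, by 0.94 (SE 0.25, adjusted p = 0.00638) on day 5 and by 0.79 (SE 0.25, adjusted p = 0.0214) on day 7. The day 7 call was lost without control replicate 1, day 7 replicate 1 or day 7 replicate 2 (log2 change -0.76 to -0.50, adjusted p 0.00138 to 0.189 over all alternatives), and the day 5 call without day 5 replicate 2 (log2 change -0.73, adjusted p 0.00190 to 0.0506 over all alternatives).

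**Figure D3:**
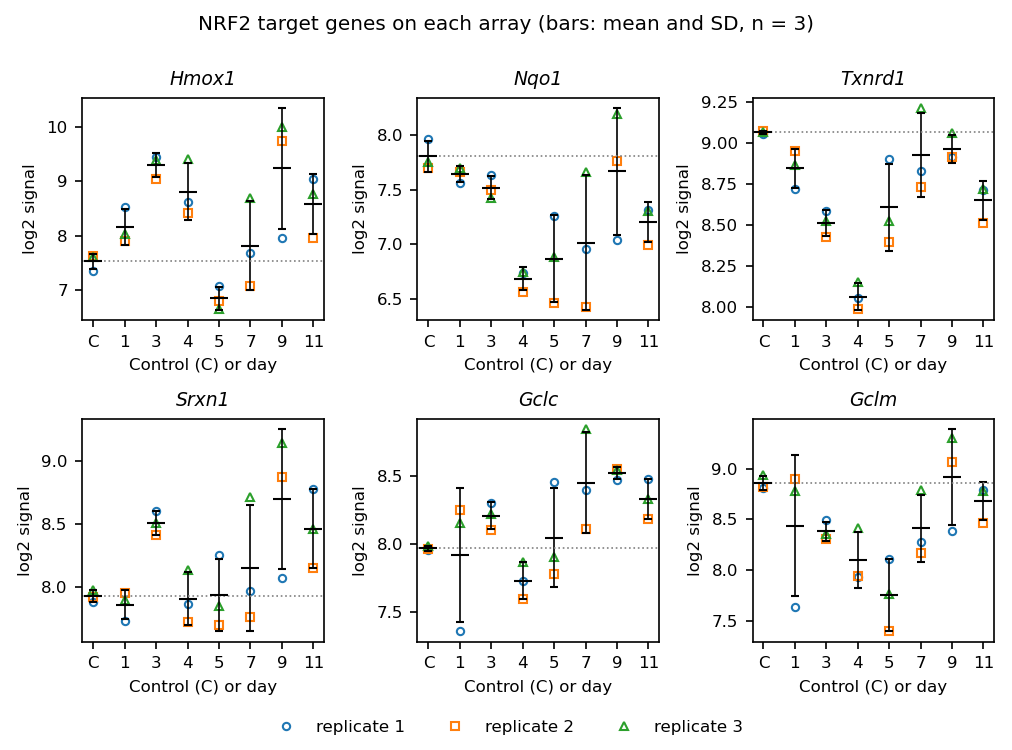
Log2 signal (upright axis) on each array of control (C) and each day (along the bottom) for Hmox1, Nqo1, Txnrd1, Srxn1, Gclc and Gclm; marks are the 3 replicates, black bars the mean and SD (n = 3), and the dotted line the control mean, and each gene has its own scale. Hmox1 was high on days 3, 4 and 9 and low on day 5, Nqo1, Txnrd1 and Gclm had their lowest means on day 4 or 5, and on day 7 replicate 3 was the highest array for all 6 genes.

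In the thioredoxin system, Txnrd1 fell on 4 of the 7 days, Srxn1 rose on day 9 and Txn1 was not called. Txnrd1, the cytosolic thioredoxin reductase, read 9.06, 9.07 and 9.07 for control, 8.72, 8.95 and 8.87 for day 1, 8.58, 8.43 and 8.52 for day 3, and 8.05, 7.98 and 8.15 for day 4. Day 5 had 8.91, 8.39 and 8.53, day 7 had 8.83, 8.73 and 9.22, day 9 had 8.92, 8.91 and 9.06, and day 11 had 8.71, 8.51 and 8.72. Control arrays of Txnrd1 lay within 9.06 to 9.07, and all arrays of days 1, 3, 4, 5 and 11 were below them. It fell by 0.56 (SE 0.13, adjusted p = 0.00247) on day 3, by 1.00 (SE 0.13, adjusted p = 2.26e-06) on day 4, 2.01-fold, by 0.46 (SE 0.13, adjusted p = 0.0109) on day 5 and by 0.42 (SE 0.13, adjusted p = 0.0208) on day 11. Txn1, thioredoxin itself, had changes of -0.88 on day 1 to -0.47 on day 9 and no adjusted p under 0.0610. Its array of day 1 replicate 1 was 10.32, beside 12.18 and 12.06 on the other day 1 arrays and 12.33 to 12.45 in control. Srxn1, sulfiredoxin, which repairs over-oxidised peroxiredoxins, ranged from 7.88 to 7.98 in control and 8.07 to 9.15 on day 9, where it rose by 0.77 (SE 0.23, adjusted p = 0.0147). Like that of Hmox1, this rise was lost when day 9 replicates 2 and 3 and day 1 replicate 1 were left out (0.15, adjusted p = 0.782) and also without day 9 replicate 2 or 3 alone (log2 change 0.55 to 0.68, adjusted p 0.000632 to 0.782 over all alternatives). For Txnrd1 the day 5 call was lost without day 5 replicate 2 (log2 change -0.35, adjusted p 0.00145 to 0.0764 over all alternatives) and the day 11 call without control replicate 2 or 3 or day 11 replicate 2 (log2 change -0.42 to -0.35, adjusted p 0.00417 to 0.108 over all alternatives).

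Both subunits of glutamate cysteine ligase, which carries out the first and limiting step of glutathione synthesis, were measured. Gclc, the catalytic subunit, read 7.95, 7.97 and 7.99 for control, 7.36, 8.26 and 8.15 for day 1, 8.30, 8.11 and 8.22 for day 3, 7.73, 7.60 and 7.87 for day 4, and 8.46, 7.78 and 7.91 for day 5. Day 7 showed 8.40, 8.11 and 8.85, day 9 showed 8.47, 8.56 and 8.55, and day 11 showed 8.48, 8.18 and 8.33. Control arrays of Gclc were nearly equal, days 3, 7, 9 and 11 were wholly above them, and day 4 was wholly below. It rose by 0.55 (SE 0.20, adjusted p = 0.0415) on day 9 only. Gclm, the modifier subunit, read 8.81, 8.83 and 8.94 for control, 7.64, 8.90 and 8.78 for day 1, 8.49, 8.30 and 8.36 for day 3, and 7.94, 7.95 and 8.42 for day 4. Day 5 gave 8.11, 7.39 and 7.76, day 7 gave 8.28, 8.17 and 8.79, day 9 gave 8.39, 9.07 and 9.30, and day 11 gave 8.79, 8.46 and 8.78. All its arrays of days 3, 4, 5, 7 and 11 were below control, and those of day 9 lay on both sides. Gclm fell by 0.76 (SE 0.26, adjusted p = 0.0351) on day 4 and by 1.10 (SE 0.26, adjusted p = 0.00249) on day 5, 2.15-fold. The Gclc call was lost without any 1 of the 6 arrays of control and day 9 (log2 change 0.54 to 0.58, adjusted p 0.00283 to 0.133 over all alternatives), and the day 4 call of Gclm without any control array, day 4 replicate 1 or day 4 replicate 2 (log2 change -0.78 to -0.68, adjusted p 0.00101 to 0.122 over all alternatives).

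Gss, glutathione synthetase, which adds glycine in the second step, read 7.00, 6.89 and 6.86 for control, 7.48, 7.29 and 7.29 for day 1, 6.23, 6.28 and 6.15 for day 3, 6.56, 6.47 and 6.60 for day 4, and 6.80, 6.69 and 6.74 for day 5. Day 7 had 6.99, 6.87 and 6.93, day 9 had 6.99, 6.75 and 6.93, and day 11 had 6.94, 7.00 and 6.86. The day 1 arrays were all above control, those of days 3 to 5 all below it, and from day 7 the arrays mixed with control. Gss rose by 0.44 (SE 0.10, adjusted p = 0.0122) on day 1 and fell by 0.69 (SE 0.10, adjusted p = 9.00e-06) on day 3 and by 0.37 (SE 0.10, adjusted p = 0.00581) on day 4. Gsr, the reductase that returns oxidised glutathione to its reduced form with NADPH, read 9.05, 9.10 and 9.05 for control, 9.37, 9.01 and 8.92 for day 1, 8.83, 8.71 and 8.66 for day 3, and 8.39, 8.45 and 8.44 for day 4. Day 5 showed 8.59, 8.64 and 8.80, day 7 showed 8.49, 8.43 and 8.55, day 9 showed 8.34, 8.34 and 8.60, and day 11 showed 8.41, 8.50 and 8.56. From day 3 on, every Gsr array lay below every control array. It fell on all 6 days from day 3, by 0.64 (SE 0.11, adjusted p = 0.000123) on day 4 and by 0.57 (SE 0.11, adjusted p = 0.000419) on day 11, with its smallest fall, 0.33 (SE 0.11, adjusted p = 0.0350), on day 3. The day 1 call of Gss was lost without control replicate 2 or 3 (log2 change 0.41 to 0.42, adjusted p 0.00391 to 0.391 over all alternatives). The day 3 call of Gsr was lost without any control array or day 3 replicate 2 or 3 (log2 change -0.34 to -0.30, adjusted p 0.00196 to 0.285 over all alternatives), and the day 5 call without day 5 replicate 1 (log2 change -0.35, adjusted p 0.000452 to 0.0552 over all alternatives).

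Peroxiredoxins, thiol peroxidases that thioredoxin or sulfiredoxin restore, were lower where they were called. Prdx1, a cytosolic peroxiredoxin, read 10.13, 10.32 and 10.31 for control, 9.05, 10.33 and 9.93 for day 1, 9.75, 9.61 and 9.74 for day 3, 9.77, 9.92 and 9.88 for day 4, and 9.27, 8.89 and 9.18 for day 5. Day 7 gave 9.58, 9.53 and 9.91, day 9 gave 9.74, 10.36 and 10.29, and day 11 gave 10.01, 9.96 and 10.17. Its day 5 arrays were the lowest of the treated days apart from day 1 replicate 1, and days 9 and 11 reached the control range. Prdx1 fell by 1.14 (SE 0.21, adjusted p = 0.000225) on day 5, 2.20-fold, and by 0.58 (SE 0.21, adjusted p = 0.0491) on day 7. Prdx3, the mitochondrial peroxiredoxin, read 9.93, 10.14 and 10.17 for control, 9.50, 10.27 and 10.10 for day 1, 9.22, 9.30 and 9.28 for day 3, and 9.43, 9.52 and 9.47 for day 4. Day 5 had 9.48, 9.56 and 9.67, day 7 had 9.72, 9.71 and 9.71, day 9 had 9.67, 9.48 and 9.55, and day 11 had 9.59, 9.78 and 9.84. All its arrays from day 3 on were below control, and those of day 1 were not. It fell on days 3, 4, 5 and 9, most on day 3, by 0.81 (SE 0.14, adjusted p = 8.63e-05). Prdx2, also cytosolic, was not called on any day with either of its 2 probe sets. The brightest of these had a control mean of 10.39 and the other 6.41, so the brighter may read a near-identical copy and its values are uncertain. The Prdx1 probe set used, with a control mean of 10.25 beside 9.53 for the other, may also read a copy. Its values carry the same doubt. The second Prdx1 probe set also fell on day 5, by 1.09 (adjusted p = 0.0115 with every probe set tested). On day 7 it was at -0.35 in the same fit (adjusted p = 0.525). The day 7 call of Prdx1 was lost with the mean of both probe sets (-0.47), without any control array and without day 7 replicate 1 or 2 (log2 change -0.64 to -0.51, adjusted p 0.000764 to 0.190 over all alternatives).

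Among the enzymes that remove superoxide and hydrogen peroxide, Gpx1 and Gpx4 both fell on day 1 and moved in opposite directions from day 3 on. Gpx1, the main cytosolic glutathione peroxidase, read 10.82, 10.85 and 10.90 for control, 10.28, 10.62 and 10.45 for day 1, 9.67, 9.53 and 9.61 for day 3, 9.85, 9.93 and 9.79 for day 4, and 9.91, 9.98 and 10.17 for day 5. Day 7 showed 10.25, 10.12 and 10.29, day 9 showed 10.28, 10.01 and 9.98, and day 11 showed 10.08, 10.14 and 10.23. Every treated array of Gpx1 was below every control array, and day 3 was the lowest. It fell on all 7 days, by 0.41 (SE 0.11, adjusted p = 0.0378) on day 1, by 1.25 (SE 0.11, adjusted p = 1.17e-08) on day 3, 2.38-fold, and by 0.71 (SE 0.11, adjusted p = 2.86e-05) on day 11. Gpx4, the peroxidase that reduces lipid hydroperoxides in membranes, read 10.50, 10.47 and 10.59 for control, 10.29, 9.91 and 9.93 for day 1, 10.89, 10.96 and 10.97 for day 3, and 10.86, 10.82 and 10.84 for day 4. Day 5 gave 10.93, 11.09 and 11.07, day 7 gave 10.97, 10.92 and 11.14, day 9 gave 11.04, 10.84 and 10.96, and day 11 gave 10.96, 10.97 and 10.92. Day 1 arrays were all below control and all later arrays above it. Gpx4 fell by 0.48 (SE 0.11, adjusted p = 0.0117) on day 1 and rose on each later day, between 0.32 (SE 0.11, adjusted p = 0.0312) on day 4 and 0.51 (SE 0.11, adjusted p = 0.000816) on day 5. A second Gpx4 probe set had changes of -0.48 on day 1 and 0.46 on day 3. With cyclic loess between arrays the calls of Gpx4 on days 1, 4, 7, 9 and 11 were lost, at -0.29, 0.32, 0.43, 0.38 and 0.36 with adjusted p from 0.0626 to 0.317. Leaving out 1 array ended the day 1 call of Gpx1 (control replicates 1 to 3, day 1 replicate 1 or 3) (log2 change -0.42 to -0.32, adjusted p 0.0121 to 0.454 over all alternatives), the day 1 call of Gpx4 (control replicate 3) (log2 change -0.44, adjusted p 0.000237 to 0.421 over all alternatives) and its day 4 call (control replicate 1 or 2, day 4 replicates 1 to 3) (log2 change 0.29 to 0.33, adjusted p 0.00232 to 0.182 over all alternatives).

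Gpx8, a peroxidase of the endoplasmic reticulum, ranged from 9.19 to 9.37 in control and from 8.65 to 9.06 on all arrays from day 3 on, with no overlap. It fell on all 6 of those days, most on day 7, by 0.61 (SE 0.10, adjusted p = 2.67e-05). Its day 3 call was lost without control replicate 2 or 3 or day 3 replicate 1 (log2 change -0.30 to -0.27, adjusted p 0.00270 to 0.0876 over all alternatives), and its day 4 call without control replicate 2 or 3 or any day 4 array (log2 change -0.30 to -0.24, adjusted p 0.00645 to 0.137 over all alternatives). Sod1, the cytosolic superoxide dismutase, rose by 0.53 (SE 0.16, adjusted p = 0.0167) on day 3 and by 0.58 (SE 0.16, adjusted p = 0.00946) on day 5. Sod2, its mitochondrial counterpart, fell on the same days, by 0.49 (SE 0.14, adjusted p = 0.0124) and by 0.62 (SE 0.14, adjusted p = 0.00192). Cat, catalase of the peroxisome, rose on day 3 only, by 0.46 (SE 0.16, adjusted p = 0.0341). These day 3 calls each depended on single arrays: that of Sod1 on control replicates 2 and 3 and day 3 replicate 2 (log2 change 0.49 to 0.51, adjusted p 6.70e-05 to 0.0685 over all alternatives), that of Sod2 on control replicate 2 (log2 change -0.44, adjusted p 0.000116 to 0.0624 over all alternatives), and that of Cat on every control array and day 3 replicates 1 and 3 (log2 change 0.41 to 0.48, adjusted p 0.000911 to 0.118 over all alternatives).

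Glutathione transferases held the largest rises of the 37 genes. Of 11 measured, 6 rose on days 3, 4 and 9, 7 on day 5 and 5 on days 7 and 11, where between 12.4% (day 3) and 17.2% (day 5) of all genes were called higher. On each of days 3, 4, 5, 7 and 11, 1 fell, and on day 9, 2 fell, where 9.44% (day 7) to 14.0% (day 9) of all genes were called lower. On day 1 none rose and 2 fell, beside 2.30% of all genes called higher and 2.52% lower. Genes of the mu class share sequence, so probe sets of Gstm1, Gstm2 and Gstm5 may read each other's RNA in part, and the same holds for Gstp1 and Gstp2.

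Mgst2, a membrane-bound transferase that can also make leukotrienes, read 7.78, 7.68 and 7.75 for control, 7.71, 8.06 and 7.93 for day 1, 10.51, 10.59 and 10.39 for day 3, 9.94, 9.88 and 10.06 for day 4, and 8.89, 8.89 and 8.87 for day 5. Day 7 had 8.61, 8.51 and 8.92, day 9 had 8.82, 9.61 and 9.60, and day 11 had 9.25, 9.16 and 9.30. The day 1 arrays lay near control, all later arrays lay far above it, and day 3 was the highest group. Mgst2 rose by 2.76 (SE 0.16, adjusted p = 1.54e-11) on day 3, 6.77-fold, by 0.94 (SE 0.16, adjusted p = 5.49e-05) on day 7 and by 1.50 (SE 0.16, adjusted p = 8.11e-08) on day 11. Mgst1, a membrane transferase of the endoplasmic reticulum and the outer mitochondrial membrane, read 5.67, 5.66 and 5.69 for control, 5.20, 5.30 and 4.63 for day 1, 7.69, 7.21 and 7.76 for day 3, and 7.21, 7.31 and 7.24 for day 4. Day 5 showed 7.25, 6.64 and 6.88, day 7 showed 7.06, 7.07 and 7.54, day 9 showed 7.19, 8.25 and 8.15, and day 11 showed 7.87, 7.74 and 7.89. Its control arrays were almost the same, all arrays of day 1 were below them, and all from day 3 on were above. It rose by 1.88 (SE 0.22, adjusted p = 7.26e-07) on day 3, by 1.25 (SE 0.22, adjusted p = 0.000133) on day 5 and by 2.19 (SE 0.22, adjusted p = 5.19e-08) on day 9, 4.57-fold. The day 9 arrays were uneven, with replicate 1 at 7.19. Without day 9 replicates 2 and 3 and day 1 replicate 1 the day 9 rise was 1.52, below that of day 11 (2.16), so which of the 2 days was the highest for Mgst1 rested on those arrays.

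Gsta4, an alpha class transferase that conjugates the lipid peroxidation product 4-hydroxynonenal, read 8.14, 8.35 and 8.30 for control, 6.85, 6.98 and 7.08 for day 1, 9.63, 9.55 and 9.76 for day 3, 9.59, 9.71 and 9.78 for day 4, and 9.08, 9.03 and 9.16 for day 5. Day 7 gave 8.90, 8.80 and 8.96, day 9 gave 8.97, 9.26 and 9.53, and day 11 gave 9.10, 9.05 and 9.20. Every day 1 array was below control by more than 1 log2 unit, and every later array was above control. Gsta4 fell by 1.29 (SE 0.12, adjusted p = 1.14e-06) on day 1, 2.45-fold, and rose by 1.39 (SE 0.12, adjusted p = 9.08e-09) on day 3 and by 0.85 (SE 0.12, adjusted p = 7.31e-06) on day 11. Gstm1, a mu class transferase, read 7.22, 7.08 and 7.23 for control, 6.41, 6.80 and 6.27 for day 1, 8.76, 8.53 and 8.76 for day 3, and 8.65, 8.69 and 8.57 for day 4. Day 5 had 9.27, 9.11 and 9.23, day 7 had 8.59, 8.49 and 8.66, day 9 had 8.67, 8.60 and 8.53, and day 11 had 8.38, 8.32 and 8.32. Its groups had the same order, day 1 below control and all later days above, with day 5 the highest. Gstm1 fell by 0.68 (SE 0.12, adjusted p = 0.00141) on day 1 and rose by 2.02 (SE 0.12, adjusted p = 1.49e-11) on day 5, 4.07-fold, and by 1.16 (SE 0.12, adjusted p = 5.38e-08) on day 11. Both day 1 falls were lost when only the 6 arrays compared were fitted, at adjusted p of 0.0571 and 0.326, in a fit that called none of the 37 genes on day 1.

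**Figure D4:**
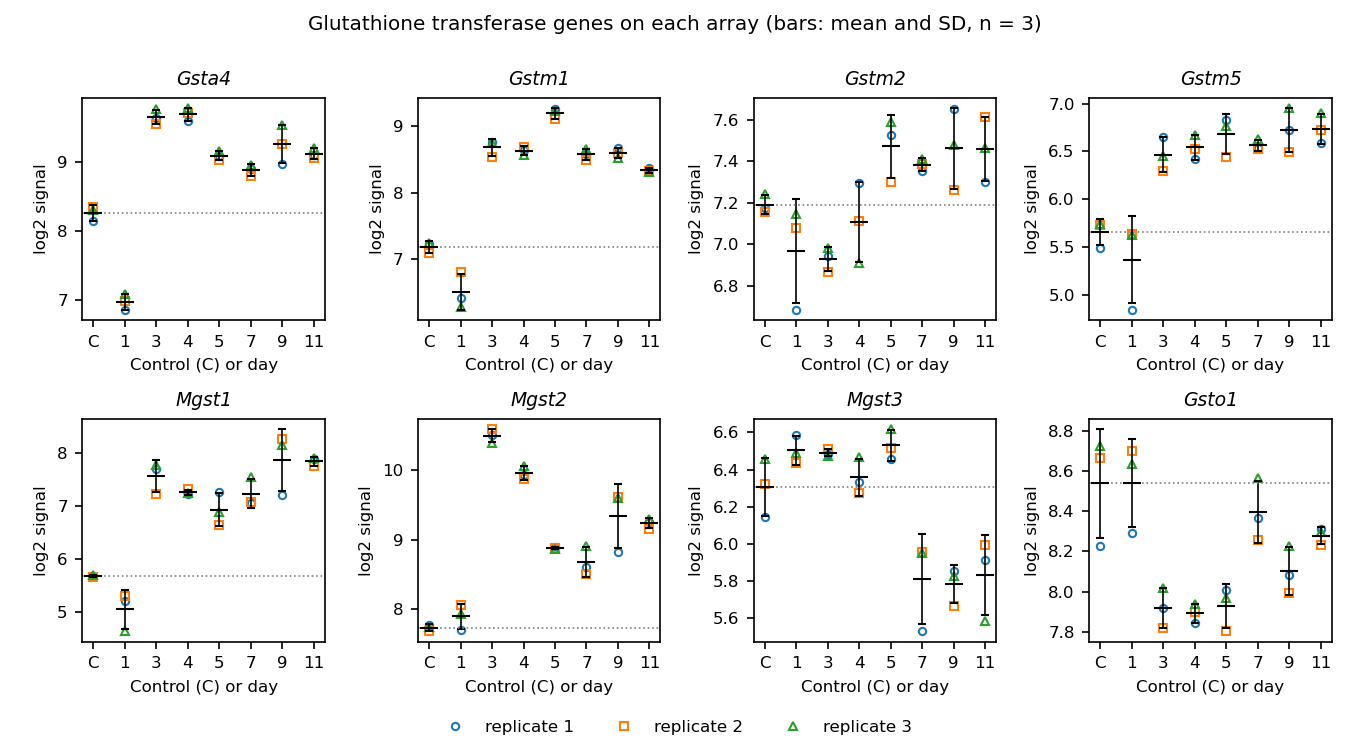
Log2 signal (upright axis) of 8 glutathione transferase genes on each array of control (C) and each day (along the bottom); marks are the 3 replicates, black bars the mean and SD (n = 3), and the dotted line the control mean, and each gene has its own scale. Gsta4 and Gstm1 dipped on day 1 and stood above control from day 3, Mgst1, Mgst2 and Gstm5 stood above it from day 3, Gstm2 stayed near it, and Gsto1 and Mgst3 were lower on some days.

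The other transferases were mixed. Gstm5 rose on all 6 days from day 3, between 0.81 (SE 0.17, adjusted p = 0.000956) on day 3 and 1.08 (SE 0.17, adjusted p = 3.50e-05) on day 11. Gstm2, of the same cluster on chromosome 3, was not called on any day, with changes from -0.26 to 0.28. Gstt3, of the theta class, rose on days 3 to 5 only, most on day 5, by 0.87 (SE 0.13, adjusted p = 2.09e-05). Gstp1, the pi class transferase, rose by 0.44 (SE 0.15, adjusted p = 0.0273) on day 5 and by 0.48 (SE 0.15, adjusted p = 0.0158) on day 9. Gsto1, an omega class enzyme with thioltransferase activity, fell on days 3, 4, 5 and 9, by 0.65 (SE 0.13, adjusted p = 0.000554) on day 4. Mgst3 fell on days 7, 9 and 11, by 0.53 (SE 0.13, adjusted p = 0.00280) on day 9, so that the 3 microsomal genes did not move together. Gstt1 had control values of 3.61 to 3.66, below the median of every array, and was not called.

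Calls of the smaller changes rested on single arrays. Those of Gstp1 were lost without control replicate 2 or day 5 replicate 1 (log2 change 0.33 to 0.35, adjusted p 0.00510 to 0.151 over all alternatives), without control replicate 2 or day 9 replicate 3 (log2 change 0.39, adjusted p 0.00677 to 0.305 over all alternatives), and on day 9 with day 9 replicates 2 and 3 and day 1 replicate 1 omitted (0.29). The day 9 call of Gsto1 was lost without control replicate 2 or 3 or day 9 replicate 2 (log2 change -0.38 to -0.34, adjusted p 0.00160 to 0.103 over all alternatives), and its day 9 arrays (7.99 to 8.23) reached the lowest control array (8.23). Those of Mgst3 were lost without day 7 replicate 1 (log2 change -0.36, adjusted p 0.000513 to 0.0601 over all alternatives), without day 11 replicate 3 (log2 change -0.35, adjusted p 0.00286 to 0.0693 over all alternatives) and on day 9 with the same omission (-0.45).

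Of the pentose phosphate genes, those called from day 3 to day 7 were all lower. Pgd, phosphogluconate dehydrogenase, which makes NADPH in the oxidative arm, read 10.03, 10.10 and 10.08 for control, 9.50, 10.12 and 10.12 for day 1, 9.52, 9.25 and 9.41 for day 3, 8.86, 8.71 and 8.92 for day 4, and 9.14, 8.56 and 8.63 for day 5. Day 7 showed 9.03, 8.90 and 9.77, day 9 showed 9.14, 9.48 and 9.74, and day 11 showed 9.28, 8.77 and 9.12. From day 3 on, all Pgd arrays were below all control arrays, with days 4 and 5 the lowest means. It fell by 0.68 (SE 0.21, adjusted p = 0.0182) on day 3, by 1.29 (SE 0.21, adjusted p = 4.30e-05) on day 5, 2.45-fold, and by 1.01 (SE 0.21, adjusted p = 0.000623) on day 11. Tkt, transketolase, which links the pathway back to glycolysis, fell on all 6 days from day 3, most on day 4, by 0.85 (SE 0.11, adjusted p = 1.40e-06), from control values of 10.06 to 10.14 to 9.07 to 9.38. Pgls, the lactonase between glucose-6-phosphate dehydrogenase and Pgd, fell on day 9, by 0.52 (SE 0.11, adjusted p = 0.000963). Rpia, which interconverts ribose and ribulose phosphates, rose on day 9 by 0.37 (SE 0.12, adjusted p = 0.0240) and on day 11 by 0.50 (SE 0.12, adjusted p = 0.00269). Taldo1 and Rpe, transaldolase and the ribulose phosphate epimerase, were not called, with changes of -0.36 or smaller in size for Taldo1 and from -0.41 on day 1 to 0.31 on day 11 for Rpe. Pgd was not called on day 3 without control replicate 2 or 3 or day 3 replicate 2 (log2 change -0.67 to -0.61, adjusted p 0.000424 to 0.0755 over all alternatives), or on day 9 without any control array or day 9 replicate 1 or 2 (log2 change -0.64 to -0.46, adjusted p 0.00901 to 0.155 over all alternatives). Tkt was not called on day 5 without control replicate 1 or 3 or day 5 replicate 2 (log2 change -0.33 to -0.27, adjusted p 0.00407 to 0.100 over all alternatives), nor Rpia on day 9 without control replicate 1 or day 9 replicate 2 or 3 (log2 change 0.28 to 0.35, adjusted p 0.00568 to 0.204 over all alternatives).

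**Figure D5:**
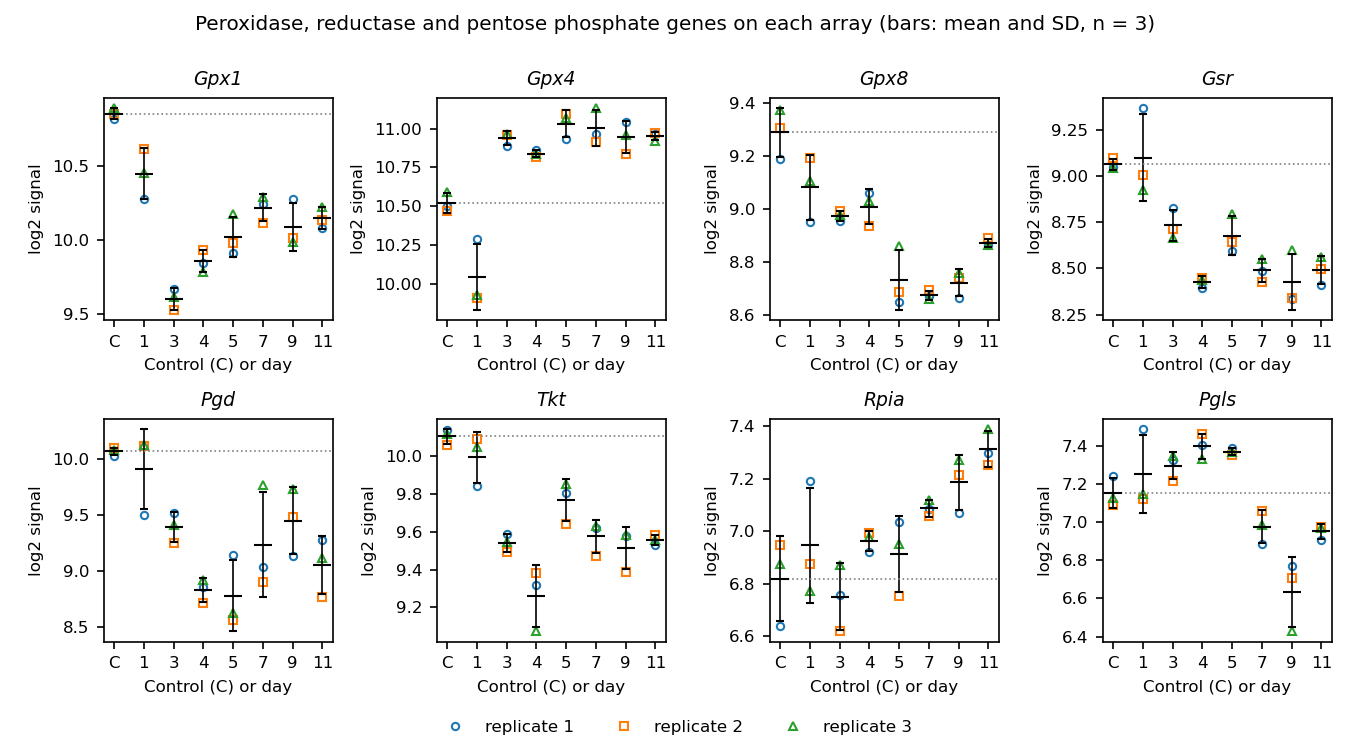
Log2 signal (upright axis) of Gpx1, Gpx4, Gpx8, Gsr, Pgd, Tkt, Rpia and Pgls on each array of control (C) and each day (along the bottom); marks are the 3 replicates, black bars the mean and SD (n = 3), and the dotted line the control mean, and each gene has its own scale. Gpx1, Gpx8, Gsr, Pgd and Tkt lay below control on every array from day 3 on, and Gpx4 lay above it.

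Between sampled days, more of the 37 genes were called from day 1 to day 3 than in any later step. From day 1 to day 3, 15 of the 37 genes were called, 9 higher and 6 lower, beside 27.3% of all genes (13.6% higher, 13.7% lower). The largest rises in this step were Gsta4, by 2.68 (SE 0.12, adjusted p = 3.14e-13), 6.40-fold, and Mgst2, by 2.60 (SE 0.16, adjusted p = 2.73e-11). The largest falls were Gss, by 1.13 (SE 0.10, adjusted p = 8.22e-09), and Gpx1, by 0.85 (SE 0.11, adjusted p = 2.91e-06). The calls of Hmox1 (log2 change 1.01 to 1.26, adjusted p 0.00629 to 0.115 over all alternatives), Srxn1 (log2 change 0.59 to 0.69, adjusted p 0.0203 to 0.118 over all alternatives) and Gsr (log2 change -0.36 to -0.23, adjusted p 0.00296 to 0.217 over all alternatives) in this step were lost without 1 array: for Srxn1 any of the 6, for Hmox1 day 1 replicate 2 or 3 or any day 3 array, and for Gsr day 1 replicate 1 or day 3 replicate 2 or 3. From day 3 to day 4 limma called none of the 37 genes beside 1.31% of all genes, called higher in 0.587% and lower in 0.727%, with 12 of the 37 at an unadjusted p below 0.05. Cyclic loess called 3, median centring 1, a fit of the 6 arrays compared 6, and fits without the day 1 array or the 3 arrays that stood apart 4 and 7.

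From day 4 to day 5, 8 of the 37 were called, 4 higher and 4 lower, beside 12.3% of all genes (9.06% higher, 3.29% lower). Gstp1 rose by 0.74 (SE 0.15, adjusted p = 0.00195) and Gstm1 by 0.57 (SE 0.12, adjusted p = 0.00296), Txnrd1 by 0.55 (SE 0.13, adjusted p = 0.00822) and Tkt by 0.51 (SE 0.11, adjusted p = 0.00321). Beside Hmox1, those that fell were Mgst2, by 1.08 (SE 0.16, adjusted p = 0.000169), Gsta4, by 0.60 (SE 0.12, adjusted p = 0.00242), and Prdx1, by 0.74 (SE 0.21, adjusted p = 0.0239). The Txnrd1 step was lost without day 5 replicate 1 (log2 change 0.40, adjusted p 0.00278 to 0.0587 over all alternatives) and the Prdx1 step without day 4 replicate 2 or 3 or day 5 replicate 2 or 3 (log2 change -0.77 to -0.63, adjusted p 0.000190 to 0.111 over all alternatives).

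From day 5 to day 7, 5 of the 37 were called, 1 higher and 4 lower, beside 5.20% of all genes (2.17% higher, 3.03% lower). Mgst3 fell by 0.72 (SE 0.13, adjusted p = 0.00123) and Gstm1 by 0.62 (SE 0.12, adjusted p = 0.00224). These were the only 2 of the 5 calls that held when any 1 array of the step was left out. Gsto1, at 0.47, was lost without day 5 replicate 2 or 3 or day 7 replicate 1 or 3 (log2 change 0.39 to 0.49, adjusted p 0.00714 to 0.207 over all alternatives). Gstt3, at -0.56, was lost without day 5 replicate 3 or day 7 replicate 3 (log2 change -0.47, adjusted p 0.00377 to 0.111 over all alternatives), and Pgls, at -0.39, without any of the 6 arrays (log2 change -0.43 to -0.35, adjusted p 0.00124 to 0.173 over all alternatives). The count was 2 without replicate 3 of either day and 3 without day 5 replicate 2 or day 7 replicate 1. Of all genes, 604, 461, 564 and 534 were called in these fits, taken in that order with day 5 before day 7.

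From day 7 to day 9, 3 of the 37 were called, Keap1 lower and Hmox1 and Mgst2 higher (1.03% of all genes were called higher). Hmox1 rose by 1.42 (SE 0.41, adjusted p = 0.0483) and Mgst2 by 0.66 (SE 0.16, adjusted p = 0.0273), but the arrays of the 2 days overlapped for both. Both were lost without day 7 replicate 1 or 2 or day 9 replicate 2 or 3, Hmox1 (log2 change 1.03 to 1.35, adjusted p 0.000426 to 1.00 over all alternatives) and Mgst2 (log2 change 0.53 to 0.63, adjusted p 3.90e-05 to 1.00 over all alternatives). The count of this step was 10 without day 9 replicate 1 and 0 without day 7 replicate 1 or 2 or day 9 replicate 2 or 3. From day 9 to day 11 limma called none of the 37, beside 0.0451% of all genes (0.0100% higher, 0.0351% lower), with 3 at an unadjusted p below 0.05 and none in any other setting.

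Other genes of the same pathway, a list of 79 with 75 measured, also split. On day 11, 35 of the 75 were called, 19 higher and 16 lower, beside 25.8% of all genes (14.0% higher, 11.8% lower). On day 1, 11 were called, 2 higher and 9 lower, beside 4.81% (2.30% higher, 2.52% lower). On the days between, 29 to 40 were called, beside 25.4% to 27.5% of all genes. The largest rises on day 11 were Slc7a11, the cystine importer, at 2.86 (SE 0.35, adjusted p = 7.99e-07), Ephx1, microsomal epoxide hydrolase, at 2.21 (SE 0.25, adjusted p = 3.19e-07), Nfe2l1, a factor related to NRF2, at 1.29 (SE 0.15, adjusted p = 2.50e-07), and Sqstm1, a cargo receptor of autophagy that binds KEAP1, at 1.22 (SE 0.10, adjusted p = 1.59e-09). The 3 control arrays of Slc7a11 spread widely (mean 6.84, SD 0.88). The largest falls were Mthfd1, a folate enzyme that makes NADPH, at -0.99 (SE 0.12, adjusted p = 7.37e-07), Ugdh, which makes UDP-glucuronate, at -0.97 (SE 0.12, adjusted p = 1.49e-06), Abcb6, a porphyrin transporter, at -0.96 (SE 0.16, adjusted p = 6.09e-05), and Msrb1, a methionine sulfoxide reductase, at -0.84 (SE 0.12, adjusted p = 5.92e-06).

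Earlier days had partly other leaders. On day 1 the rises were Me1, malic enzyme, at 0.70 (SE 0.17, adjusted p = 0.0182), and Abcc1, an exporter of glutathione conjugates, at 0.40 (SE 0.11, adjusted p = 0.0447). Me1 had 2 probe sets, and only its brightest is given, which may read a copy. Txnip and Cth led the falls on day 1, at -2.47 (SE 0.21, adjusted p = 3.00e-07) and -1.24 (SE 0.23, adjusted p = 0.00271). Arrays of both genes spread widely, with SDs of 0.47 and 0.70 in control and 0.58 and 0.47 on day 1. The control arrays of Cth read 9.89, 8.68 and 8.66. Chac2, a glutathione-degrading enzyme, was among the largest falls on days 3 and 4, at -1.32 (SE 0.15, adjusted p = 5.40e-07) and -1.24 (SE 0.15, adjusted p = 1.01e-06). On day 5 Osgin1 had the third largest rise, at 1.39 (SE 0.14, adjusted p = 3.55e-08), after Ephx1 and Slc7a11, and the day 5 arrays of Slc7a11 overlapped control. Glrx5, a mitochondrial glutaredoxin, was among the 2 largest falls of that day, at -0.81 (SE 0.12, adjusted p = 1.46e-05). Bach1, the repressor that competes with NRF2 for its elements and is known for holding Hmox1 down, was picked out after its values had been seen. Its changes were 1.06, 1.07, 0.95, 0.95, 0.92 and 0.99 on the 6 days from day 3, all called, and 0.17 on day 1. Nadk, which makes NADP from NAD, fell on the same days and was also picked out after its values had been seen, at -1.09 on day 3 and -0.65 on day 11.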

How the data were processed

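RNA of 4T1 cells was measured on 24 Affymetrix arrays, 3 for each of 8 groups, which were taken from the sample titles. The submitters' processing notes name RMA and Affymetrix Expression Console 1.1 for the log2 signals the authors deposited. That the logarithm has base 2 was read from the range of the values (0.96 to 14.71); other settings were not given in the sources used here. RMA as usually run sets all arrays to 1 distribution, in which case a change is relative to the bulk of probe sets.

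Of 35557 probe sets, 21789 carried 1 gene symbol in a 2016 annotation, 1621 several and 12147 none. The brightest single-symbol probe set stood for each of 19938 genes, of which 999 had more than 1 such probe set; 21698 probe sets matched a RefSeq gene by Entrez ID, and no symbol changed. No filter on low values was used; 36 of the 37 genes would have passed omission of the 40% dimmest genes. The 40 genes, the 79 other pathway genes and the marker lists were chosen with earlier results of these data known.

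In R 4.3.3, limma 3.58.1 (lmFit, eBayes) fitted 1 mean per group on all 24 arrays (16 residual degrees of freedom). Adjusted p-values are Benjamini-Hochberg values over all genes of a comparison. Each day was compared with control and with the day sampled before it. SE stands for the fit's standard error and SD for the standard deviation of 3 arrays, and the median gene had an SD between replicates of 0.20. In simulated data the fit recovered 38% of log2 changes of 0.5 and 90% of changes of 1 on day 1, and 34% and 86% on day 11. The simulation gave a gene the same spread in every group. In the real arrays the median SD of all genes was 0.28 on day 1 and 0.11 in control, so these rates do not describe day 1.

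Of the 37 genes, every-array values are given for the regulators, for Gclc, and for those among the 3 largest called rises or falls on any day with no overlap between the day and control arrays; each step names its 2 largest rises and 2 largest falls; of the pathway genes, the largest 2 rises and 2 falls of each day are named, and 4 of each on day 11, where the day and control arrays did not overlap. Alternatives were the mean of a gene's probe sets, omission of the 40% dimmest genes, cyclic loess, median centring, a mean trend with robust variances, a replicate block, a fit of only the arrays compared, omission of day 1 replicate 1, omission of day 1 replicate 1 with day 9 replicates 2 and 3 (the 3 arrays that stood apart), and omission of each array in turn. Promoter windows come from RefSeq. Python 3.11.15 and matplotlib 3.10.9 drew the figures.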

Additional observations from a re-analysis of the deposited data

Results flagged for a closer look

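Of the 37 genes, 4 were called higher on one day and lower on another, and the F test among the 7 treated days called each of them. The transferase genes Gsta4 and Gstm1 moved furthest between such days. Gsta4 was at -1.29 (SE 0.12) on day 1 and 1.43 (SE 0.12) on day 4, a gap of 2.72 on the log2 scale (F test adjusted p = 5.14e-13). Gstm1 was at -0.68 (SE 0.12) on day 1 and 2.02 (SE 0.12) on day 5, a gap of 2.71 (adjusted p = 8.89e-13). Gpx4, the lipid hydroperoxide reductase, was at -0.48 (SE 0.11) on day 1 and 0.51 (SE 0.11) on day 5, a gap of 0.99 (adjusted p = 6.84e-07). Gss, glutathione synthetase, was the only one of the 4 to start high, at 0.44 (SE 0.10) on day 1 and -0.69 (SE 0.10) on day 3, a gap of 1.13 (adjusted p = 1.48e-07). All 4 gaps include day 1, whose replicate 1 stood apart, and for Gsta4, Gstm1, Gpx4 and Gss all 3 day 1 arrays lay on the same side of control. Of all 19938 genes, 2251 had all day 1 arrays above all control arrays and 1912 had them all below. Since the 4 genes were chosen by calls that include day 1, this lack of overlap is no separate support. The cause was not tested.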

How the results depend on the processing

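Across 10 kinds of alternative no called change reversed. Of 144 called changes of the 37 genes against control or between sampled days, the mean of a gene's probe sets ended 1, a robust trend 2, omission of the day 1 array 3, omission of the 3 arrays that stood apart 9, a fit of only the arrays compared 12, cyclic loess 13 and median centring 17. A call was held under every alternative by 0 of 5 genes on day 1, 14 of 20 on day 3, 15 of 19 on day 4, 16 of 21 on day 5, 10 of 14 on day 7, 11 of 20 on day 9 and 11 of 14 on day 11. Counts of called genes moved by more than 1.5 times as follows. A fit of only the arrays compared gave 0 on day 1, where none of the 37 passed, 23 on days 7 and 11, 6 from day 3 to day 4 and 0 from day 7 to day 9. Without the 3 arrays that stood apart the counts were 22 on day 7, 25 on day 11, 24 from day 1 to day 3, 7 from day 3 to day 4, 15 from day 4 to day 5, 11 from day 5 to day 7 and 0 from day 7 to day 9. Without the day 1 array alone, these last 4 steps gave 4, 13, 10 and 7. Median centring gave 1 from day 3 to day 4, 2 from day 5 to day 7 and 1 from day 7 to day 9. Cyclic loess gave 3 from day 3 to day 4, and omission of the dimmest genes 6 from day 7 to day 9. The cause was not tested. Leaving out 1 array gave 2 to 13 on day 1, 14 to 18 on day 3, 16 to 17 on day 4, 18 to 21 on day 5, 11 to 14 on day 7, 15 to 18 on day 9 and 13 to 15 on day 11. For the steps in order it gave 12 to 22, 0 to 0, 7 to 8, 2 to 6, 0 to 10 and 0 to 0, and for the F test 28 to 35. The all-gene calls moved too, from 411 to 3026 on day 1 and from 4670 to 6778 in the step from day 1 to day 3. In the step from day 7 to day 9 they ran from 9 to 4262.

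Arrays that share a number showed no likeness across groups: the median correlation of deviations was -0.001 over 84 same-number pairs, with 16 above 0.1, and 0.001 over 168 other pairs. With the replicate block the counts were 5, 21, 19, 21, 16, 20 and 14 on the 7 days and 33 for the F test, and the block ended no call. Of all genes, it called 943, 5225, 5348, 5443, 5040, 5391 and 5112 on those days and 8805 in the F test. The limits are those of 3 arrays a group, of probe sets that may read related genes, and of a control without a stated time in culture.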

Other observations

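Within the treated groups from day 3 on, 8 textbook NRF2 targets, Hmox1, Nqo1, Txnrd1, Srxn1, Gclc, Gclm, Prdx1 and Pgd, tended to be highest on 1 and the same array. These 8 were picked out after their values had been seen, so what follows is a description with no test. On day 7, replicate 3 was the highest array for 8 of the 8 genes and replicate 2 the lowest for 8, although replicate 3 was the highest for 35.4% of all genes and replicate 2 the lowest for 35.2%. On day 3 and on day 5, replicate 1 was the highest for 8 of 8, beside 31.6% and 32.2% of all genes. Of the 37 genes, these 8 included, it was the highest for 19 and 23 and the lowest for 5 and 7. Txn1 and Gsr, left out of the 8, had replicate 1 as their highest array on day 3 but their lowest on day 5, at 11.61 and 8.59. On day 11, replicate 2 was the lowest for 8 of 8, beside 33.5% of all genes, and replicate 1 the highest for 6, beside 40.5%. On day 9, replicate 1 was the lowest for 7 and replicate 3 the highest for 6, beside 38.1% and 27.4%. On day 4, replicate 3 was the highest for 7, beside 33.2%. On day 1, replicates 1, 2 and 3 were the highest for 1, 5 and 2, and replicate 1 was the lowest for 7, beside 34.6%. In control no array was the highest for more than 4 of the 8, though replicate 1 was the lowest for 7, beside 37.5%.

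The median SD of the 8 genes over 3 arrays was 0.059 in control, beside 0.11 for all genes, and 0.097 on day 3, beside 0.13. It was 0.35 on day 1, beside 0.28, and 0.12 on day 4, beside 0.11. On the later days it was 0.30 on day 5, 0.42 on day 7, 0.41 on day 9 and 0.19 on day 11, beside 0.16, 0.10, 0.17 and 0.11 for all genes. On day 7, replicate 3 lay above the group mean by 0.24 to 0.87 in each of the 8, by 0.49 on average, and it was the highest array for 25 of the 37 genes, these 8 included. On day 9, replicate 1 lay below by 0.48 on average, with Hmox1 lowest at -1.28. The cause was not tested.

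Members of 1 family could differ more between themselves than from control. Of the microsomal transferase genes on day 11, Mgst1 was at 2.16, Mgst2 at 1.50 and Mgst3 at -0.48, and of the peroxidases Gpx4 was at 0.43 and Gpx1 at -0.71. Among pathway genes picked out after their values had been seen, the cytosolic glutaredoxin gene Glrx rose on days 3 to 7 (0.69, 0.98, 1.06 and 0.72) while the mitochondrial Glrx5 fell on all 6 days from day 3, between -0.94 and -0.66. Blvrb, a biliverdin reductase, was higher on the same 6 days, between 0.51 and 1.13, and Blvra was not called on any day.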
